A study of Mus musculus with 9 samples.

Results

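Epithelial cells of the gut secrete or display chemokines, small proteins that draw leukocytes along a gradient through G protein-coupled receptors. The 9 genes described here, *Cxcl1*, *Cxcl2*, *Cxcl5*, *Cxcl10*, *Cxcl16*, *Ccl20*, *Ccl25*, *Ccl28* and *Cx3cl1*, were chosen by name as chemokine ligands that intestinal epithelium can make, and all 9 were found among the 54838 mouse genes of the expression tables. *Ccl25*, the ligand of *Ccr9*, and *Ccl28*, the ligand of *Ccr10* and *Ccr3*, are the homeostatic members and are known for homing lymphocytes to mucosal surfaces. *Cxcl16* and *Cx3cl1* are made as membrane proteins that hold cells bearing *Cxcr6* and *Cx3cr1* and are released by metalloproteases. *Ccl20* attracts Ccr6+ cells, *Cxcl10* is an interferon-induced ligand of *Cxcr3*, and *Cxcl1*, *Cxcl2* and *Cxcl5* are neutrophil attractants that bind *Cxcr2* and are classic NF-κB target genes.

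The libraries came from intestinal organoids of *Vil-CreERT2*;*Mettl3* fl/fl mice on a C57BL/6 background, and the study's methods give male mice of 2 to 4 months. All groups carried both alleles. The Vil promoter drives the tamoxifen-inducible Cre in intestinal epithelium, and 4-hydroxytamoxifen (4-OHT) activates it to excise the floxed part of *Mettl3*, the catalytic subunit of the m6A RNA methyltransferase. Organoids received the solvent EtOH or 500 nM 4-OHT for 2 days, and the solvent DMSO or Nec-1 (necrostatin-1, an inhibitor of the kinase RIPK1) for 5 days, at 5 µM by the legend and 10 µM by the methods. RNA was sequenced from 7 libraries, namely 2 of EtOH DMSO, 2 of EtOH Nec-1, 2 of 4-OHT DMSO and 1 of 4-OHT Nec-1. No group combined 4-OHT with organoids lacking the Cre. The labels do not say whether replicates were separate cultures, so the p-values measure only the spread between these libraries, which may be technical.

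Values are FPKM, fragments counted per kilobase of transcript and scaled to the number mapped, so levels can be compared between genes. They summed to 450207 to 498712 per library, with 11559 to 12038 genes at 1 FPKM or more. The number of fragments behind a value is unknown, and values well under 1 FPKM rest on few fragments. The label 4-OHT did not go with less *Mettl3* mRNA. EtOH libraries held 2.70 and 2.71 FPKM with DMSO and 2.41 and 2.47 with Nec-1, and those labelled 4-OHT held 3.72 and 4.14 with DMSO and 3.36 with Nec-1, with a log2 fold change of 0.41 (SE 0.098, adjusted p = 0.0231) between the DMSO groups. A gene-level value does not show which exons were read, so every direction below rests on the labels. The 8 epithelial markers lay at 56.5 to 1771 FPKM. Of 15 leukocyte markers only *Itgam* reached 1 FPKM in any library, with *Ptprc* (CD45) at or below 0.0497. No fibroblast marker of 8 exceeded 0.678 FPKM, and no endothelial marker of 5 exceeded 0.132.

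Positions are those of RefSeq on GRCm38.p6. *Cxcl5* (chr5:90759298-90761625), *Cxcl1* (chr5:90891245-90893121) and *Cxcl2* (chr5:90903899-90905938) lie close together on chromosome 5, and *Cxcl10* (chr5:92346638-92348889) lies on the same chromosome. *Cxcl16* is at chr11:70454389-70459984, *Ccl20* at chr1:83116766-83119167, *Ccl25* at chr8:4325205-4360020, *Ccl28* at chr13:119623819-119654359 and *Cx3cl1* at chr8:94772180-94782427. Some of these genes overlap a neighbor, and reads of overlapping genes cannot be told apart where the library kit keeps no strand. *Zmynd15* overlaps 552 bases of *Cxcl16*. *Art3* spans *Cxcl10*, and the lncRNA genes LOC108167518 and Gm51543 overlap *Ccl25* and *Cx3cl1*. *Cxcl1* and *Cxcl2* are close paralogs of each other and of *Cxcl3*, so their split of shared reads is uncertain.

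Promoter sequence is shown for *Cxcl1*, *Cxcl2* and *Cxcl10*, because these genes were higher together in the libraries labelled 4-OHT and carry the letters of binding motifs for inflammatory factors. They were picked after these values were seen. The windows end at the base before the RefSeq start of the transcript on GRCm38.p6 and read 5′ to 3′ on the gene's strand. Capitals mark matches to the κB consensus, the NF-κB motif, and in *Cxcl10* also the first capital run, a match to the core of the interferon-stimulated response element (ISRE), searched as GAAA, any 2 bases and GAAA again. *Cxcl1* is given at chr5:90891125-90891244 (plus strand), *Cxcl2* at chr5:90903779-90903898 (plus strand) and *Cxcl10* at chr5:92348890-92349139 (minus strand).
Cxcl1: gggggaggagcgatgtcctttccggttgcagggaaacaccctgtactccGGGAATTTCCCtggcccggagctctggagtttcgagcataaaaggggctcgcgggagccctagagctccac
Cxcl2: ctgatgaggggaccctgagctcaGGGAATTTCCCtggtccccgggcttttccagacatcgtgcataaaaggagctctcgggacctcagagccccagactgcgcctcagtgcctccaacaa
Cxcl10: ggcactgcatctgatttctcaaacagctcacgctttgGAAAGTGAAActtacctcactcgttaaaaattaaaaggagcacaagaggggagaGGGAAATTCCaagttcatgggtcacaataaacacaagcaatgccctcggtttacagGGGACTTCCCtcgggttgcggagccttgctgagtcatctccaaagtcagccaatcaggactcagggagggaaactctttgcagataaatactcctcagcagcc

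The κB match of *Cxcl1* lay 71 to 62 bases before the start and that of *Cxcl2* 97 to 88 bases before it. These matches read GGGAATTTCC, and in both windows the opposite strand also held a match, GGGAAATTCC, shifted by 1 base. The longest run the 2 windows shared was GGGAATTTCCCTGG, with 14 bases. *Cxcl10* had GGGAAATTCC at 159 to 150 and GGGACTTCCC at 103 to 94 bases before the start, and the ISRE core match GAAAGTGAAA at 213 to 204. *Ccl20* had GGGGTTTTCC on the opposite strand, 80 to 71 bases before the start. Neither motif was found in the windows of *Ccl25* (2 starts), *Ccl28* and *Cx3cl1*, which says only that these letters are not in those windows. Both strands of the 250 bases before each start were searched. Of 32851 RefSeq promoters, 3.90% held a κB match and 2.98% an ISRE core match. The promoter table held 7 of the 9 genes, and *Cxcl5* and *Cxcl16* are named only.

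In EtOH DMSO organoids the chemokine mRNA was mostly that of the homeostatic pair. *Ccl25* and *Ccl28* together made up 82.3% to 83.6% of the FPKM summed over the 9 genes, and *Cxcl16* made up 10.6% to 13.4%. In the 4-OHT DMSO libraries the share of *Ccl25* and *Ccl28* was 30.7% to 33.4%, that of *Cxcl16* was 31.4% to 44.6%, and that of *Cxcl10* was 10.7% to 12.4% against 0.0612% to 0.153% in EtOH DMSO. The sum itself ranged from 51.7 to 72.7 FPKM over the 7 libraries. With Nec-1 the share of *Ccl25* and *Ccl28* was 82.4% to 88.1% in EtOH organoids and 43.9% in the 1 library of 4-OHT organoids, where that of *Cxcl10* was 2.56%. *Cx3cl1*, which differed widely within groups, took 2.27% to 6.89% in EtOH DMSO, 0.957% to 7.77% in EtOH Nec-1, 4.67% to 23.1% after 4-OHT with DMSO and 26.3% after 4-OHT with Nec-1, more than *Cxcl16* in that library (23.3%). In bulk RNA, a different number of cells of a type and a different amount of RNA per cell cannot be told apart. The stacked plot of the summed levels shows this make-up for each library.

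**Figure D1:**
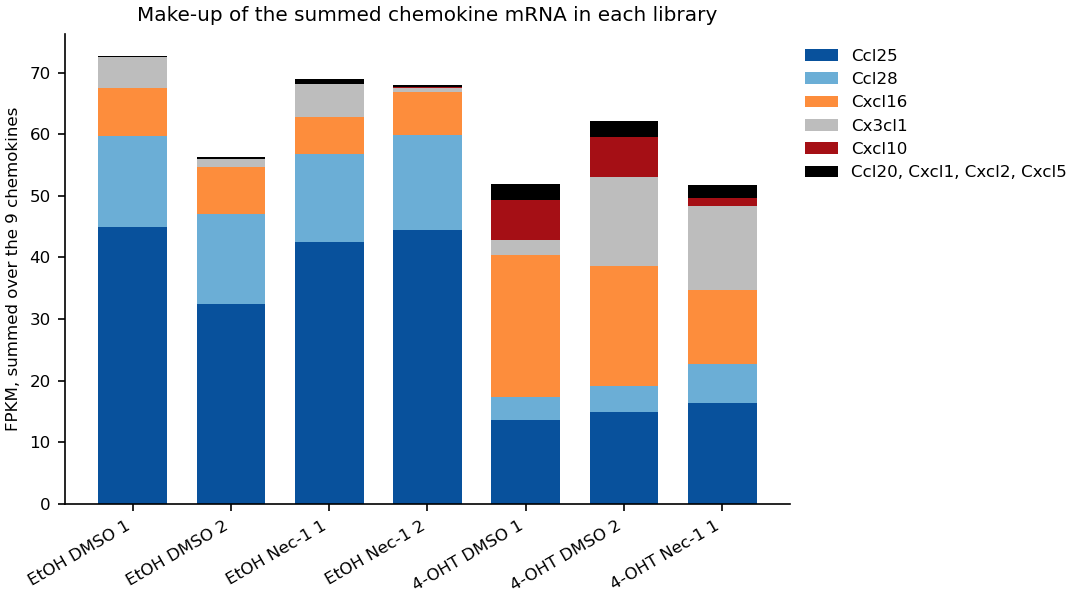
Stacked bars of FPKM summed over the 9 chemokine genes (y axis, from 0) for each of the 7 libraries (x axis), colored by gene. Blue shades for *Ccl25* and *Ccl28* fill 82.3% to 88.1% of the 4 EtOH bars and 30.7% to 43.9% of the 3 bars labelled 4-OHT.

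The first comparison asked how the chemokine genes differed between 4-OHT DMSO and EtOH DMSO organoids, with limma applied to log2(FPKM + 1). The fit took in 12702 genes, those that reached 1 FPKM in 2 or more libraries. *Cxcl10* and *Cxcl16* rose, and *Ccl25* and *Ccl28* fell. *Ccl20* and *Cx3cl1* were tested and not called, and *Cxcl1*, *Cxcl2* and *Cxcl5* did not reach 1 FPKM in any library. So 2 of the 6 tested chemokine genes were called higher and 2 lower, where 24.5% of all tested genes were called higher and 16.7% lower. *Cxcl10* and *Ccl20* passed the filter only through libraries labelled 4-OHT, so these counts do not support anything about the 9 genes as a group. The plot of FPKM by library shows the single values.

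**Figure D2:**
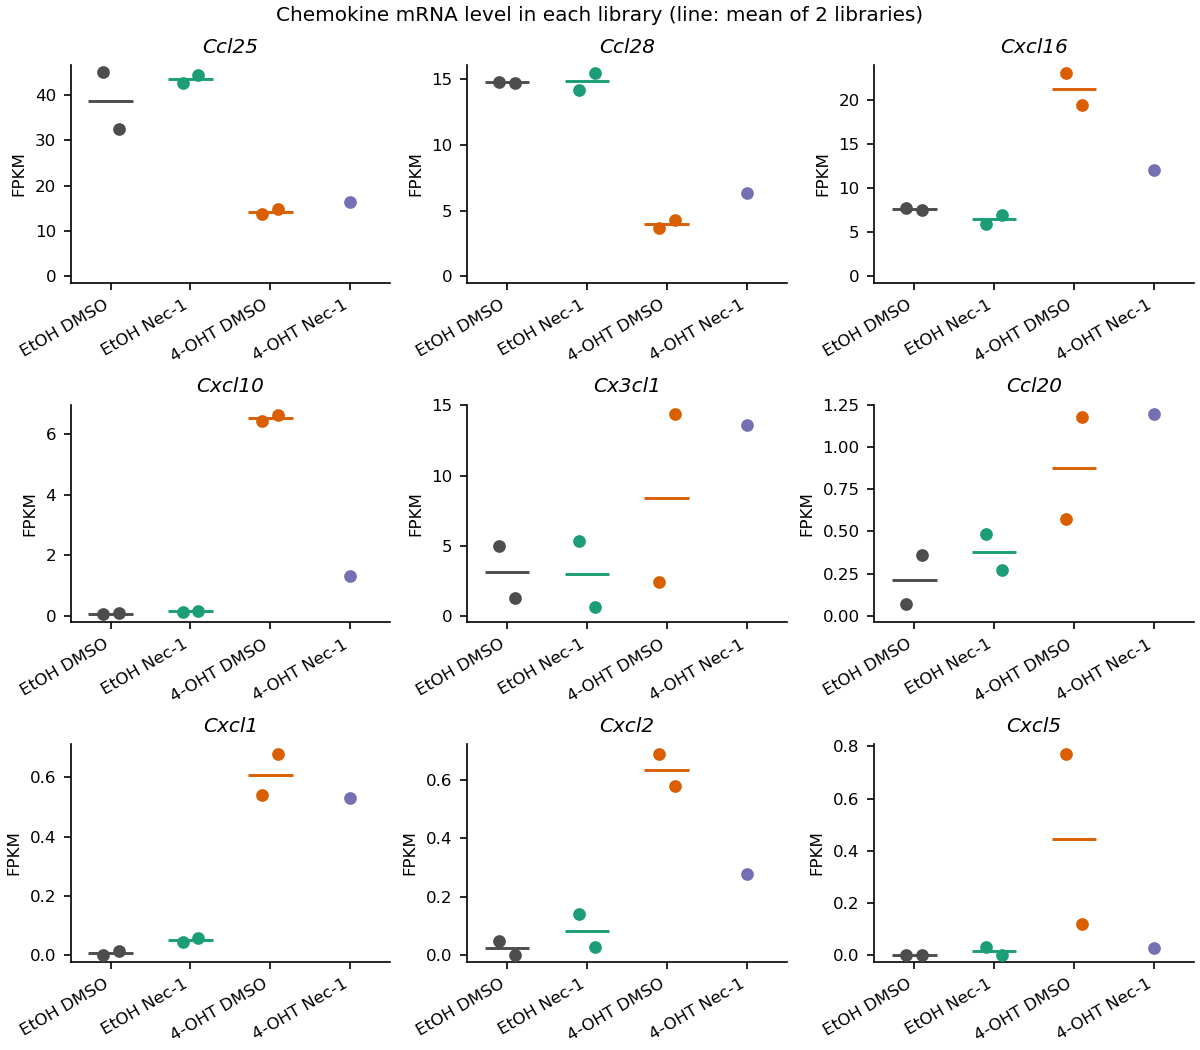
FPKM (y axis, linear, 1 scale per gene) of each of the 9 chemokine genes in the 4 groups (x axis), with 1 point per library and a line at the mean of groups with 2 libraries. *Ccl25* and *Ccl28* are lower in the 3 libraries labelled 4-OHT than in all 4 EtOH libraries, *Cxcl16* and *Cxcl10* are higher, and the 2 points of each *Cx3cl1* group lie far apart.

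*Ccl25*, the most abundant of the 9 genes in every EtOH library, had 45.0 and 32.4 FPKM in EtOH organoids with DMSO and 42.6 and 44.5 with Nec-1. In 4-OHT organoids it had 13.7 and 14.9 FPKM with DMSO and 16.3 with Nec-1. Every library labelled 4-OHT lay below every EtOH library. Between the DMSO groups the mean was 2.71-fold lower, and the log2 fold change was -1.36 (SE 0.16, adjusted p = 0.00266).

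*Ccl28*, which also has antimicrobial activity as a protein, showed the same order with less spread. EtOH organoids had 14.8 and 14.7 FPKM with DMSO and 14.2 and 15.5 with Nec-1, against 3.66 and 4.25 with DMSO and 6.37 with Nec-1 after 4-OHT. The 4 EtOH libraries were close to each other, and the 3 others lay well below them. The mean was 3.74-fold lower in 4-OHT DMSO than in EtOH DMSO, with a log2 fold change of -1.67 (SE 0.099, adjusted p = 0.000480).

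*Cxcl16*, the membrane-bound ligand of *Cxcr6*, was 7.73 and 7.53 FPKM in EtOH organoids with DMSO and 5.97 and 6.94 with Nec-1. After 4-OHT it was 23.1 and 19.5 FPKM with DMSO and 12.0 with Nec-1. No EtOH library reached the lowest library labelled 4-OHT. The mean was 2.79-fold higher in 4-OHT DMSO, with a log2 fold change of 1.37 (SE 0.12, adjusted p = 0.00117). *Zmynd15*, whose annotation overlaps *Cxcl16*, had 0.150 to 0.223 FPKM in the EtOH libraries, 2.04 and 2.03 after 4-OHT with DMSO and 0.718 after 4-OHT with Nec-1, and its part in the *Cxcl16* value was not tested.

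*Cxcl10* had the widest difference of the 6 tested genes. In EtOH organoids it was listed at 0.0445 and 0.0863 FPKM with DMSO and at 0.126 and 0.160 with Nec-1. In 4-OHT organoids it reached 6.45 and 6.64 FPKM with DMSO and 1.32 with Nec-1. The 4 EtOH libraries were near 0, both 4-OHT DMSO libraries were high and nearly equal, and the 4-OHT Nec-1 library lay between these and the EtOH libraries. The log2 fold change between the DMSO groups was 2.82 (SE 0.11, adjusted p = 0.000275). The ratio of the FPKM means was 100.1, a value with a denominator of few fragments, and the added 1 FPKM makes the log2 value smaller than that ratio. *Art3*, which spans *Cxcl10*, was at or below 0.0442 FPKM in every library.

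*Ccl20*, a chemokine of the epithelium over lymphoid follicles, was low. EtOH libraries gave 0.0700 and 0.359 FPKM with DMSO and 0.485 and 0.270 with Nec-1, and those labelled 4-OHT gave 0.574 and 1.18 with DMSO and 1.20 with Nec-1. The EtOH libraries all lay below the 3 others, but the 2 libraries of EtOH DMSO differed 5.13-fold. The log2 fold change of 0.62 (SE 0.22) did not pass the threshold (adjusted p = 0.0768). Without 4-OHT DMSO library 1, which leaves 1 library in that group, it was 0.85. *Ccl20* reached 1 FPKM only in libraries labelled 4-OHT, so it entered the fit through the groups where it was high.

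*Cx3cl1*, the membrane-bound ligand of *Cx3cr1*, differed more within groups than between them. Values were 5.01 and 1.28 FPKM for EtOH with DMSO, 5.35 and 0.652 for EtOH with Nec-1, 2.42 and 14.4 for 4-OHT with DMSO and 13.6 for 4-OHT with Nec-1. The groups overlapped, and the 2 libraries of a group differed 3.91-fold, 8.22-fold and 5.93-fold. The log2 fold change between the DMSO groups was 0.97 (SE 0.98, adjusted p = 0.463), and it was -0.11 without 4-OHT DMSO library 2. Of the 12702 genes, 30 (0.236%) differed at least 3-fold between the 2 libraries in every group of 2, and *Cx3cl1* was the only one of the 9 chemokines among them.

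The neutrophil attractants were near the floor of the measurement. *Cxcl1* had 0 and 0.0130 FPKM in EtOH organoids with DMSO and 0.0447 and 0.0591 with Nec-1, against 0.541 and 0.678 with DMSO and 0.529 with Nec-1 after 4-OHT. *Cxcl2* had 0.0474 and 0 FPKM in EtOH organoids with DMSO and 0.143 and 0.0268 with Nec-1, against 0.687 and 0.580 with DMSO and 0.278 with Nec-1 after 4-OHT. For both genes every library labelled 4-OHT lay above every EtOH library. *Cxcl5* was listed at 0 in 3 of the 4 EtOH libraries and at 0.0316 FPKM in the first EtOH Nec-1 library, with 0.770 and 0.121 after 4-OHT with DMSO and 0.0290 after 4-OHT with Nec-1, so the EtOH libraries and those labelled 4-OHT overlapped. In an alternative fit with no filter, over 28195 genes, the log2 fold change between the DMSO groups was 0.68 for *Cxcl1* (SE 0.052, adjusted p = 0.00720), 0.67 for *Cxcl2* (SE 0.072, adjusted p = 0.0128) and 0.49 for *Cxcl5* (SE 0.23, adjusted p = 0.265). In that fit 9.68% of genes were called higher and 6.19% lower. The promoters of *Cxcl1* and *Cxcl2*, printed above, share a κB match, and the windows of *Cxcl10* and *Ccl20* also held κB matches. Any part of these matches in the values was not tested.

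Over all 12702 genes the median log2 fold change between the DMSO groups was 0.077, and centring each library on its median moved it to -0.080. The calls then went from 3117 higher and 2120 lower to 2213 higher and 3187 lower. *Cxcl10*, *Cxcl16*, *Ccl25* and *Ccl28* kept their direction and their side of the threshold under this centring and under upper quartile scaling.

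Markers of epithelial cell types also differed between the DMSO groups, in lists added after the data were seen. The counts stand beside 24.5% of all tested genes called higher and 16.7% lower. Of 8 Paneth cell markers 7 rose (median log2 fold change 1.26) and their summed level went from 7635 to 8454 FPKM in EtOH DMSO to 20023 to 20614 in 4-OHT DMSO. All 6 goblet cell markers rose (median 1.14), 4 of them under median centring, where 2213 of 12702 genes were called higher. Among 9 tested enterocyte markers 5 fell and 2 rose (median -0.45). *Alpi*, the brush border alkaline phosphatase, had the largest fall, at -1.53 (adjusted p = 0.00178). The 2 that rose were *Anpep*, at 1.08 (adjusted p = 0.00426), and *Apoa1*, at 0.61 (adjusted p = 0.00548). The summed enterocyte level was 1437 to 1502 FPKM for EtOH with DMSO and 1121 to 1181 for 4-OHT with DMSO. It did not follow the 4-OHT label under Nec-1, at 1160 to 1165 FPKM for EtOH and 1307 for 4-OHT, and *Apoa4*, an enterocyte apolipoprotein, fell with Nec-1 in EtOH organoids (log2 fold change -1.62, adjusted p = 0.0102). Summed leukocyte markers were 1.38 to 2.19 FPKM in EtOH DMSO and 0.994 to 1.02 in 4-OHT DMSO. The part of epithelial cell types in the chemokine values was not tested.

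Nec-1 was next compared with DMSO in EtOH organoids, the question being whether RIPK1 inhibition alone moved these genes. None of the 9 was called in this limma comparison (0 of 6 tested), where 0.173% of all genes were called higher and 0.0472% lower. At an unadjusted limma p under 0.05 the count was also 0 of 6, beside 1689 of all 12702 genes. In the fit with no filter the unadjusted count was 0 of 9, beside 2765 of 28195 genes. After adjustment that fit called 0 of 9, with 0.0213% of genes called higher and 0.00709% lower. Log2 differences were 0.18 for *Ccl25* (SE 0.16), 0.0050 for *Ccl28* (SE 0.099), -0.21 for *Cxcl16* (SE 0.12), 0.10 for *Cxcl10* (SE 0.11), 0.19 for *Ccl20* (SE 0.22) and -0.19 for *Cx3cl1* (SE 0.98). Adjusted p ranged from 0.488 to 0.991. This comparison shares the EtOH DMSO libraries with the one before.

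In 4-OHT organoids Nec-1 was represented by 1 library, so that comparison has no replicate check. Differences of log2(FPKM + 1) from each 4-OHT DMSO library are given, and the count takes genes that were 1 log2 unit or more away from both on the same side, among 12036 genes whose mean reached 1 FPKM. *Cxcl10* was lower by this count, at -1.68 and -1.72 from the 2 DMSO libraries, and its FPKM was 0.202 times their mean and 20.2 times the EtOH DMSO mean. It was the only one of the 9 genes past that fold, where 1.21% of genes were counted lower and 0.764% higher. *Cxcl16* lay at -0.89 and -0.65 (0.565 times the mean), *Ccl28* at 0.66 and 0.49 (1.61 times) and *Ccl25* at 0.24 and 0.13 (1.14 times). *Cx3cl1* lay at 2.09 and -0.074, between the first and the second DMSO library. Of all 12036 genes, 50.6% lay below both DMSO libraries and 24.5% above both, with a median difference of -0.089, and centring on the median changed the counts from 92 higher and 146 lower to 119 and 115. Both this and the first comparison use the 4-OHT DMSO libraries, so a chance deviation in those moves both.

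With the spread borrowed from the groups with 2 libraries, an alternative limma contrast gave an adjusted p of 0.00967 for *Cxcl10*, 0.0821 for *Cxcl16* and 0.107 for *Ccl28*. That contrast assumes that the lone library varies like the others. The 4-OHT Nec-1 library was also set beside the EtOH Nec-1 libraries, a comparison added after the data were seen and without a test. Mean log2 differences were -1.36 for *Ccl25*, -1.10 for *Ccl28*, 0.81 for *Cxcl16*, 1.02 for *Cxcl10* and 2.17 for *Cx3cl1*. *Ccl25* and *Ccl28* were past the fold on the lower side, which 1.94% of 11746 genes were, and *Cx3cl1* on the higher side, which 4.24% were. *Cxcl10* was under the filter on the mean there.

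Whether Nec-1 acted differently in 4-OHT than in EtOH organoids was tested as the difference of both Nec-1 effects in the same fit, a contrast added after the data were seen. The 4-OHT Nec-1 arm is 1 library with no spread of its own, so its errors and p-values assume that it varies like the other groups. For *Cxcl10* this difference was -1.80 (SE 0.18) and did not pass the threshold (adjusted p = 0.0662). It was -0.56 for *Cxcl16* (adjusted p = 0.496) and 0.57 for *Ccl28* (adjusted p = 0.378). *Ccl20*, *Ccl25* and *Cx3cl1* were at 0.058, -0.0016 and 1.20 (adjusted p = 0.978, 0.999 and 0.866). None of the 6 tested genes was called (0 of 6), where 0.0157% of all genes were called higher and 0.0394% lower. At an unadjusted p under 0.05 the count was 3 of 6, beside 1059 of all 12702 genes. For *Cxcl10* the adjusted p ranged from 0.0252 to 0.334 over the alternatives, and passed in 3 of 13, namely with no filter (0.0345), without the trend (0.0416) and without 4-OHT DMSO library 1 (0.0252), which leaves 1 library against 1 in 4-OHT organoids. In the fit with no filter 0.677% of genes were called higher and 0.0993% lower. The plot of log2 differences sets the comparisons side by side.

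**Figure D3:**
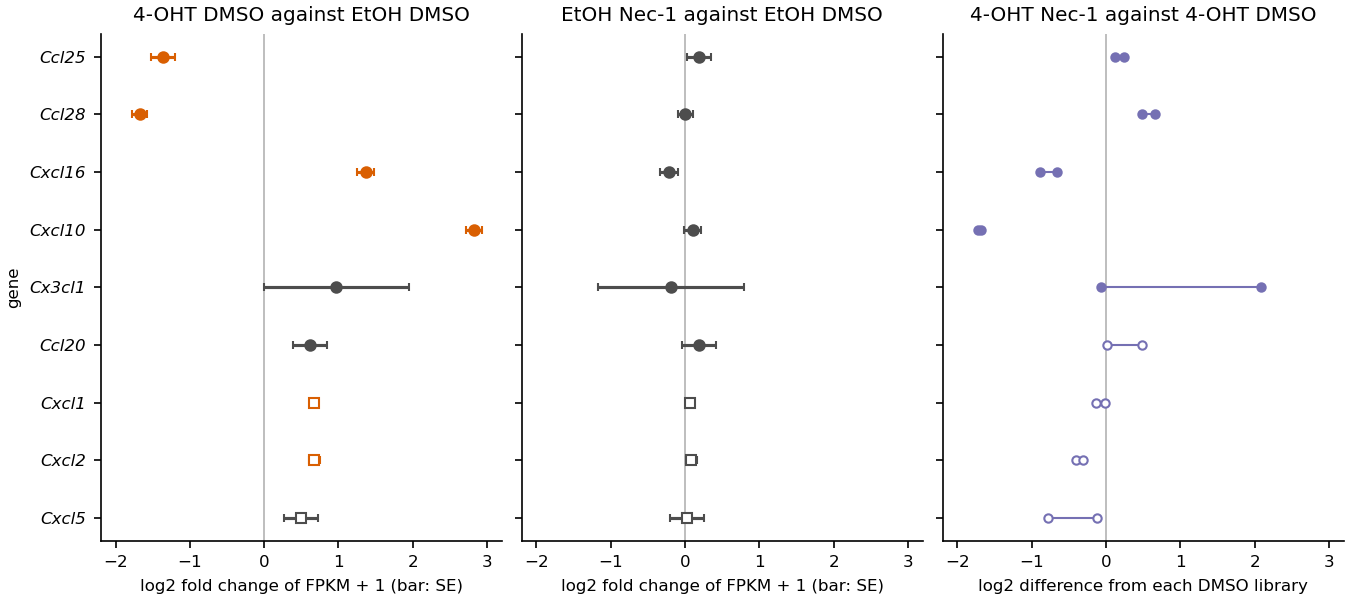
Log2 fold changes of FPKM + 1 (x axis) for the 9 chemokine genes (y axis), from left to right 4-OHT DMSO against EtOH DMSO and EtOH Nec-1 against EtOH DMSO with standard errors as bars, and the difference of the 1 4-OHT Nec-1 library from each 4-OHT DMSO library. Orange marks a limma adjusted p under 0.05, open squares come from the fit with no filter and open circles are genes under the filter on the mean. *Cxcl10* lies at 2.82 in the first panel and at -1.68 and -1.72 in the third.

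The genes whose log2(FPKM + 1) followed each variable chemokine most closely over the 7 libraries were sought among 7009 genes whose mean reached 5 FPKM. These correlations describe 7 points that mostly share the split between EtOH and 4-OHT. For *Cxcl10* they were *Parp9* (r = 0.998), *Oas3* (r = 0.998) and *Eif2ak2* (r = 0.998), all known as interferon-induced genes, and 369 genes exceeded 0.95. *Oas3* was 0.0235 to 0.0284 FPKM in the EtOH libraries, 15.3 and 21.4 after 4-OHT with DMSO and 2.28 after 4-OHT with Nec-1. *Parp9* and *Oas3* were under 5 FPKM in every EtOH library and reached that mean only through libraries labelled 4-OHT. For *Ccl28* they were *Insig1* (r = 0.999), a regulator of sterol synthesis, *Slc11a2* (r = 0.998), the apical iron transporter, and *Tkfc* (r = 0.998), a triose kinase, and 443 genes exceeded 0.95. *Slc11a2* was 42.9 to 52.1 FPKM in the EtOH libraries, 7.57 and 9.44 after 4-OHT with DMSO and 13.9 after 4-OHT with Nec-1. For *Ccl20* they were *Osr2* (r = 0.982), *Mfsd9* (r = 0.979) and *Tmem125* (r = 0.977), with 17 genes over 0.95. For *Cx3cl1* they were *Bri3* (r = 0.973), *Mrpl4* (r = 0.964) and *Thtpa* (r = 0.961), with no other gene over 0.95, and *Thtpa* showed the same uneven pairs, at 7.78 and 3.27 FPKM in EtOH DMSO and 3.51 and 9.62 in 4-OHT DMSO.

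Other chemokine ligands were mostly silent in these organoids. Of 29, 4 passed the filter and 11 were listed at 0 everywhere. The 4 that were tested all rose between the DMSO groups, where 24.5% of all tested genes were called higher. *Cxcl11*, which shares *Cxcr3* with *Cxcl10*, was 0.599 and 0.510 FPKM in EtOH DMSO, 3.67 and 4.06 after 4-OHT with DMSO and 1.47 after 4-OHT with Nec-1 (log2 fold change 1.64, adjusted p = 0.000694). *Ccl5*, a T cell attractant, was 0 and 0.0687 FPKM in EtOH DMSO, 1.45 and 3.13 after 4-OHT with DMSO and 0.705 after 4-OHT with Nec-1 (1.62, adjusted p = 0.00698). *Ccl6* went from 2.70 and 2.40 FPKM to 9.02 and 10.9 (1.62, adjusted p = 0.00304), and *Ccl9* from 1.72 and 1.18 to 4.24 and 2.91 (0.89, adjusted p = 0.0166). *Cxcl11* and *Ccl5* passed the filter only through libraries labelled 4-OHT, so the count does not support anything about the ligands as a group.

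None of the 22 chemokine receptors was at 1 FPKM. The highest single value was 0.182 FPKM, in the scavenging receptor *Ackr4*, and 8 receptors were listed at 0 everywhere, among them *Ccr6* and *Cxcr3*. *Ccr9*, the receptor of *Ccl25*, was at 0.00564 to 0.0245 FPKM. Of the 3 proteases that shed or trim chemokines, *Adam17* rose (0.54, adjusted p = 0.0211) and *Dpp4*, which clips *Cxcl10*, fell (-0.45, adjusted p = 0.0162). *Adam17* was called under median centring and not under upper quartile scaling. *Adam10*, a sheddase of *Cxcl16* and *Cx3cl1*, had 34.4 and 37.8 FPKM in EtOH DMSO and 42.3 and 42.4 in 4-OHT DMSO (0.23, adjusted p = 0.0790).

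Most transcription factors of the interferon route rose between the DMSO groups. Of 7 STAT and IRF factors 6 rose and none fell (0), where 24.5% of all tested genes were called higher and 16.7% lower. Their median log2 fold change was 1.70 beside 0.077 for all genes. Under median centring 5 of them rose, where 2213 of 12702 genes were called higher. *Irf7* was 1.85 and 1.86 FPKM in EtOH DMSO, 36.0 and 50.2 after 4-OHT with DMSO and 8.74 after 4-OHT with Nec-1 (3.93, adjusted p = 0.000321). It was lower in the 4-OHT Nec-1 library than in either 4-OHT DMSO library, as *Cxcl10* was. *Stat2* (2.28, adjusted p = 0.00241) and *Irf9* (1.70, adjusted p = 0.000720), which form a complex at ISRE sites, rose too, and after 4-OHT *Irf9* was 7.72 and 8.15 FPKM with DMSO and 8.56 with Nec-1.

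Of 14 NF-κB subunits, kinases and inhibitors 7 rose and 0 fell, with a median of 0.37. Of all tested genes 24.5% were called higher and 16.7% lower. Under median centring 4 of the 14 rose and 1 fell, where 2213 of 12702 genes were called higher and 3187 lower. *Rela*, the p65 subunit, was 8.99 and 11.3 FPKM in EtOH DMSO and 24.9 and 22.3 in 4-OHT DMSO (1.15, adjusted p = 0.00217). *Tnfaip3* (A20, an inhibitor that is itself an NF-κB target) was at 1.14 (adjusted p = 0.00823), *Nfkb2* at 0.89 (adjusted p = 0.00201) and *Nfkbia* at 0.63 (adjusted p = 0.00214). Among 13 tested cytokines, receptors and adaptors of chemokine induction, of 21 listed, 8 rose and 2 fell (median 0.79). The shares over all tested genes were again 24.5% higher and 16.7% lower. Under median centring 6 of these genes rose and 3 fell, beside 2213 higher and 3187 lower calls over all 12702 genes. *Tnf* was 1.00 and 1.38 FPKM in EtOH DMSO, 13.6 and 13.9 after 4-OHT with DMSO and 7.06 after 4-OHT with Nec-1 (2.76, adjusted p = 0.000603). *Tlr2* (1.92, adjusted p = 0.00146), *Il17ra* (1.40, adjusted p = 0.00144) and *Myd88* (1.15, adjusted p = 0.00414) rose as well, and *Tlr2* and *Il17ra* passed the filter only through libraries labelled 4-OHT. *Il18* (-1.11, adjusted p = 0.00296) and *Ifngr2*, a chain of the interferon gamma receptor (-0.56, adjusted p = 0.00455), fell.

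Of 7 factors that govern the decay of chemokine mRNA, 2 rose and 1 fell (median -0.051), beside 24.5% of all tested genes called higher and 16.7% lower, and 1 rose and 2 fell under median centring. *Zc3h12a* (Regnase-1, an endonuclease that cuts inflammatory mRNAs) rose by 0.71 (adjusted p = 0.00465) and *Hnrnpd* by 0.44 (adjusted p = 0.0236), and *Zfp36l2* fell by 0.35 on the log2 scale (adjusted p = 0.0378). *Zfp36* (tristetraprolin) was at 0.37 (adjusted p = 0.172). Among the ligand, protease, NF-κB, inducing, STAT and IRF and decay lists no gene was called between EtOH Nec-1 and EtOH DMSO in the same limma fit (0 in each). The plot of related lists shows tested genes of these lists between the DMSO groups.

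**Figure D4:**
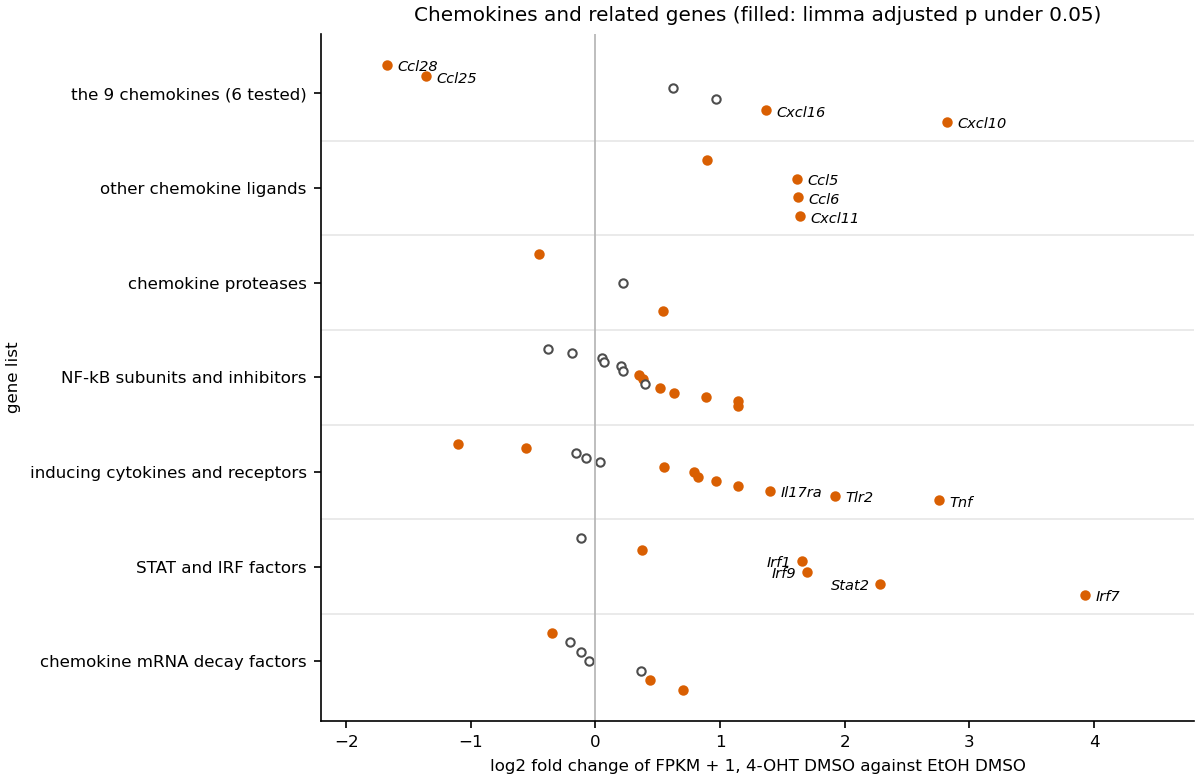
Log2 fold change of FPKM + 1 between 4-OHT DMSO and EtOH DMSO (x axis) for tested genes of 7 lists (y axis), with filled orange points at a limma adjusted p under 0.05 and open points otherwise. *Irf7* lies farthest to the right at 3.93, *Tnf* at 2.76 and *Cxcl10* at 2.82, and *Ccl28* at -1.67 and *Ccl25* at -1.36 lie farthest to the left.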

How the data were processed

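RNA of organoids was sequenced in 7 libraries, of which 1 was 4-OHT Nec-1. The authors deposited FPKM, 1 value per Ensembl gene and library, sequenced on the Illumina HiSeq X platform. The submitters' processing notes name HISAT2 2.1.0, StringTie 1.3.3b and mm10 without giving their roles. Gene symbols were assigned by Ensembl gene ID, and positions and promoters came from RefSeq tables of GRCm38.p6. The 2 Atf3 CUT&Tag samples were not analysed here. No column was left unmapped (0).

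The plan had a count test for files of counts and limma for normalized values, and limma was used because the files hold FPKM. Values were computed with Python 3.11.15, pandas 2.3.3 and numpy 2.4.6, drawn with matplotlib 3.10.9, and tested with limma 3.58.1 in R 4.3.3. Log2(FPKM + 1) was fitted with a mean-variance trend, 1 mean per group and 3 residual degrees of freedom. Tests were two-sided with Benjamini-Hochberg adjustment over all genes and a threshold of 0.05. The script was tested on simulated data.

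The 9 genes and the gene lists were chosen with earlier results of these data known. Named from each of 7 lists are the 4 tested genes with the largest absolute change between the DMSO groups and any called with Nec-1. Also named are *Mettl3* and, for chemokines whose highest library is at least 4 times the lowest and above 1 FPKM, the 3 genes with the highest Pearson's r. *Il18*, *Ifngr2*, *Alpi*, *Anpep*, *Apoa1*, *Apoa4*, *Itgam*, *Ptprc* and the receptors were named after their values were seen. An item that the rule names is not reported here. Alternatives were other scalings, filters, pseudocounts of 0.1 and 0.25, fits of fewer libraries, a fold threshold and a replicate block.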

Additional observations from a re-analysis of the deposited data

How the results depend on the processing

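*Cxcl10*, *Cxcl16*, *Ccl25* and *Ccl28* kept their direction and their side of the threshold between 4-OHT DMSO and EtOH DMSO in every alternative that gave a value (15 for *Cxcl10* and 16 for each of the others), with adjusted p from 0.000275 to 0.0169. Of the 9 chemokines, 4 were called higher with no filter, beside 2730 of 28195 genes. Among these 4 were *Cxcl1* and *Cxcl2*, which did not reach 1 FPKM in any library. With 1 FPKM required in every library 1 was called higher, beside 2673 of 10440 genes, and *Cxcl10* was left untested. Calls over all genes numbered 854 higher and 465 lower with a fold of 1 log2 unit added, and 3187 lower with median centring. Depth limits the genes under 1 FPKM, and its effect on *Cxcl1*, *Cxcl2*, *Cxcl5* and *Ccl20* could not be gauged without counts.

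Between EtOH Nec-1 and EtOH DMSO, the 22 higher and 6 lower calls became 37 higher with upper quartile scaling, 6 and 2 with no filter, and 66 and 21 with only the 4 libraries of the comparison. Leaving out single libraries gave 5 to 60 higher and 2 to 19 lower calls, with 60 and 19 both without 4-OHT DMSO library 1 and without library 2, and 5 higher without EtOH Nec-1 library 2. None of the 9 chemokines was called in any of these limma fits. For 4-OHT Nec-1 against 4-OHT DMSO, the 146 genes counted lower became 255 with a pseudocount of 0.1, 232 with 0.25 and 97 with a mean of at least 5 FPKM, where 0 chemokines were counted because *Cxcl10* is under that mean. Leaving out a 4-OHT DMSO library gave 181 to 247 higher and 244 to 543 lower genes, and 0 to 1 chemokines higher, *Cx3cl1* without library 2.

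Small differences changed sign, and the cause was not tested. Without single libraries, *Cx3cl1* ranged from -0.11 (without 4-OHT DMSO library 2) to 2.05 between the DMSO groups and from -1.16 to 0.78 with Nec-1 in EtOH organoids, where it was above 0 without EtOH DMSO library 1 (0.51) and without EtOH Nec-1 library 2 (0.78). The Nec-1 difference in EtOH organoids ranged from -0.046 (without EtOH DMSO library 2) to 0.42 for *Ccl25* and from -0.053 (without EtOH Nec-1 library 2) to 0.063 for *Ccl28*. The difference of both Nec-1 effects for *Ccl25*, at -0.0016, was 0.014 with median centring, 0.018 with upper quartile scaling, 0.0047 and 0.0036 with pseudocounts of 0.1 and 0.25, and -0.23 to 0.23 without single libraries. For *Ccl20*, at 0.058, it was -0.26 and -0.072 with those pseudocounts and -0.18 to 0.23 without single libraries.

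The expression values showed no pairing of the libraries by replicate number, which cannot tell whether libraries shared a culture or an animal. The replicate differences of 2 groups correlated over 12702 genes with r of -0.040, 0.0065 and -0.012. With the replicate number as a block, 2788 genes were called higher and 1909 lower between the DMSO groups, and 15 and 4 with Nec-1 in EtOH organoids, and no call of a chemokine changed.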
